A study of Mus musculus with 24 samples.

Results

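Genes that turn proline, histidine and glutamine into glutamate were followed in mouse liver by RNA sequencing: Prodh, Aldh4a1, Gls2, Hal, Uroc1, Amdhd1 and Ftcd. With them were read Prodh2, which acts on hydroxyproline, and Glud1, which acts on glutamate itself. All of these genes were chosen by name from the known steps of these pathways. Together they make up 9 of the 41388 genes in the files, and all 9 passed the filter on low counts. The libraries came from liver of floxed control mice (labelled fl/fl, and WT in the design text) and of mice lacking alanine transaminase 2 (Gpt2) specifically in liver (labelled KO and LSALT2KO), each with free access to food (fed) or after a fast of 18 h (fasted). Neither the labels nor the design text name the Cre driver, the strain or the age of the mice. After the removal of 2 libraries the comparison held 5 control fed, 5 control fasted, 6 knockout fed and 6 knockout fasted libraries.

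Proline is oxidised in mitochondria by proline dehydrogenase (Prodh) to pyrroline-5-carboxylate, which Aldh4a1 converts to glutamate; Prodh2 is the related dehydrogenase of hydroxyproline. Histidine reaches glutamate through histidine ammonia-lyase (Hal), urocanase (Uroc1), imidazolonepropionase (Amdhd1) and the folate-dependent enzyme Ftcd, and glutamine reaches it through the liver-type glutaminase Gls2. Glutamate dehydrogenase (Glud1) takes glutamate to 2-oxoglutarate, whose carbon can enter gluconeogenesis, a known task of the fasting liver. Transaminases, Gpt2 among them, interconvert glutamate and 2-oxoglutarate in either direction.

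Before the results, 2 libraries stood apart. Control fed replicate 6 had a damaged file with 964 complete gene lines, and control fasted replicate 4 resembled kidney, with 75.7 CPM (the count scaled to the library's depth) of Alb against at least 45450 in the other control fasted libraries; both were left out. The 22 libraries used held 18.4 to 55.3 M reads assigned to genes. Gpt2 followed the labels: knockout fed libraries had 16.3% of the control fed level and knockout fasted libraries 16% of the control fasted level. The lowest count of any of the 9 genes was 2268 reads, a counting error of 2.1%, so the spread between libraries and not the depth limited the comparisons. Whether each library is a separate animal is not in the labels, so p-values measure the spread between these libraries.

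Upstream sequence is shown for the 3 genes that fell on fasting and for Prodh2, the relative of Prodh that did not pass the test. Each window runs from 250 bases before to 50 bases after the RefSeq transcription start in GRCm38.p6, 5′ to 3′ on the gene's strand, and capitals mark matches to the motifs searched. The windows are chr16:18089141-18089440 (minus strand) for Prodh, chr4:139622644-139622943 (plus) for Aldh4a1, chr14:34310477-34310776 (plus) for Glud1 and chr7:30493408-30493707 (plus) for Prodh2. The Prodh window lies wholly inside the gene as counted, whose 5′ end on the minus strand is 18090203. It therefore holds no sequence upstream of that end.
Prodh: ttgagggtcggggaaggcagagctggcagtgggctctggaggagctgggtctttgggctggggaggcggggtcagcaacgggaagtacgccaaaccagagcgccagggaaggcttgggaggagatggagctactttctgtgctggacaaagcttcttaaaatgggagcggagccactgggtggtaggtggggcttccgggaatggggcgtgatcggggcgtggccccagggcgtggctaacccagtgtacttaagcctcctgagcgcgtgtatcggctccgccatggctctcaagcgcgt
Aldh4a1: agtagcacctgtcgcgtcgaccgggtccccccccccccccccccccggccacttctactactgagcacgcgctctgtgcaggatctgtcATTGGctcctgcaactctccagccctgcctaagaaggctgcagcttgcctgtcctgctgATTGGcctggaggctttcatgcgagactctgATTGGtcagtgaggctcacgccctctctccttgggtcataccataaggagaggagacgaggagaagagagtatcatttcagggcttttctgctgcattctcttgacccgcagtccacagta
Glud1: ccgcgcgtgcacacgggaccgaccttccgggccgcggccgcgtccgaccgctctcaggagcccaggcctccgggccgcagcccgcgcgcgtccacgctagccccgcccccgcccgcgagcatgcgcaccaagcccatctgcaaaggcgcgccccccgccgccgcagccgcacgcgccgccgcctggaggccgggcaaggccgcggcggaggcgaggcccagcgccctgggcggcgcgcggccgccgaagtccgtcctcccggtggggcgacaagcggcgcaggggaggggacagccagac
Prodh2: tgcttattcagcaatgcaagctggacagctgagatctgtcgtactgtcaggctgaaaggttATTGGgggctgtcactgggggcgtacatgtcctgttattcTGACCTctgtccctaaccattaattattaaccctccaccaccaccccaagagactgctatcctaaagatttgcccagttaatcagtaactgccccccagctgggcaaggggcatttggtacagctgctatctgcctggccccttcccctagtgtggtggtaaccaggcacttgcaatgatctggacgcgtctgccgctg

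The windows of the 3 genes that fell shared none of the searched motifs. The search covered both strands for the CCAAT box, the TATA box TATAAA, the E-box CACGTG, the cAMP response element TGACGTCA and its part TGACG, the forkhead site TGTTTAC, the nuclear receptor site AGGTCA and its direct repeat with 1 base between the copies, and the short glucocorticoid element ACANNNTGT; the longer forms contain the shorter ones. Aldh4a1 held 3 matches to CCAAT, which 37.4% of 32817 RefSeq promoter windows of the same length hold, and the 3 lie in capitals above, on the opposite strand. Prodh2 held 1 match to CCAAT and 1 to AGGTCA, the latter found in 16.3% of windows. The windows of Prodh, inside the gene as counted, and of Glud1 held no match to any of the 9 motifs. The Glud1 window was 81.0% G and C with 51 CG dinucleotides, and the Prodh window 63.0% with 17, against a median of 52.7% and 7 over all windows. RefSeq windows were found for 8 of the 9 genes, all but Gls2.

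Fasting was compared with feeding first in control mice, within a single fit of all 4 groups. Of the 9 genes 3 fell and none rose, at an adjusted p under 0.05 (edgeR, quasi-likelihood, Benjamini-Hochberg adjustment over 16757 genes). The background of this comparison was 8.12% of all genes called in either direction, 3.99% higher and 4.13% lower. The genes that fell were Prodh, Aldh4a1 and Glud1, 2 in the proline branch and 1 at the exit from glutamate. The median log2 fold change of the 9 genes was -0.37, beside 0.00 over all genes tested. In knockout mice 2 of the 9 fell, Aldh4a1 and Glud1, against a background of 6.14% called, 2.88% higher and 3.26% lower, with a median of -0.32 beside 0.01. In these tissue samples fewer cells of a type and less RNA per cell cannot be told apart.

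**Figure D1:**
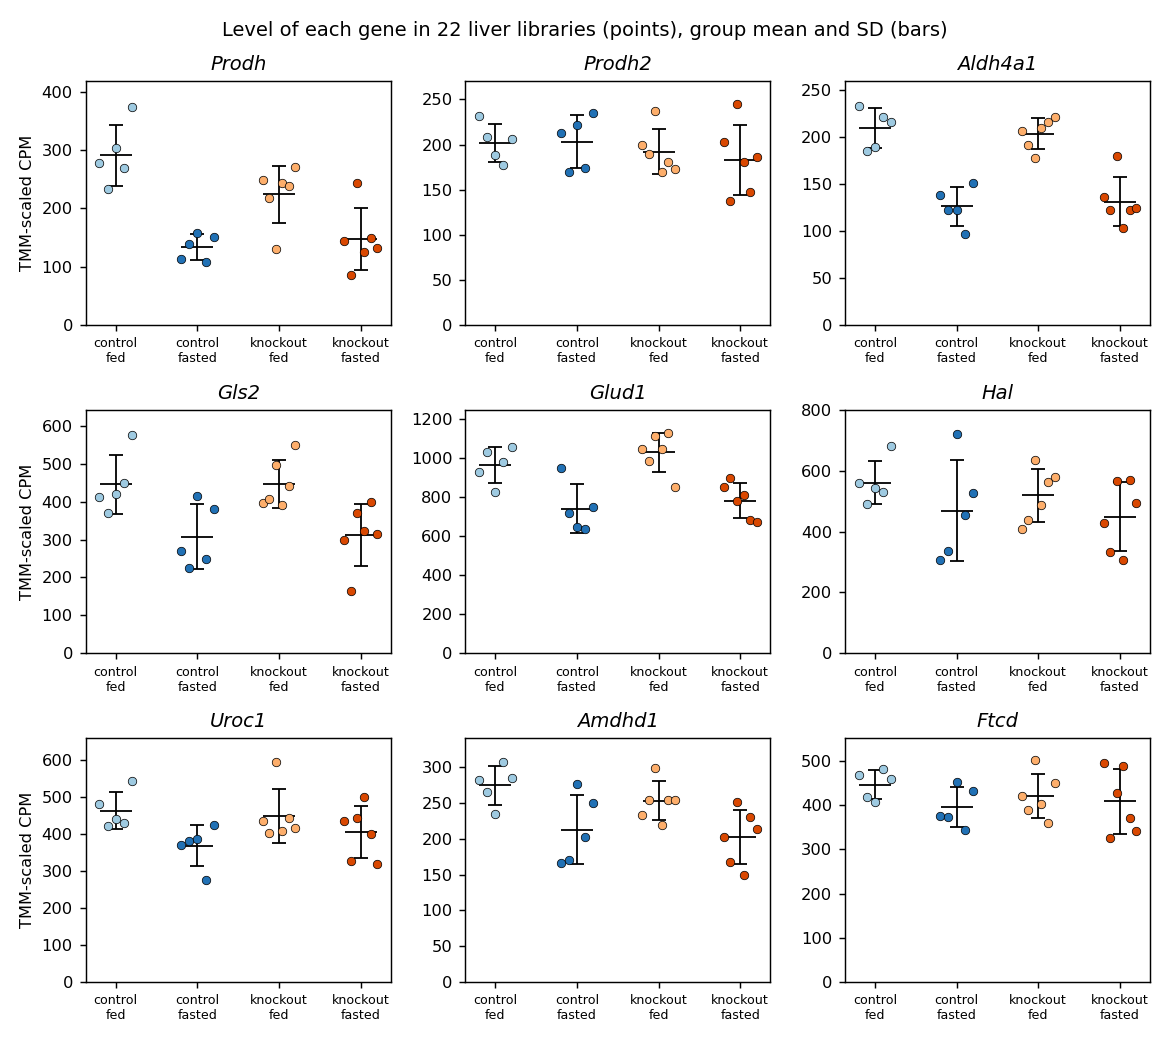
Level of each gene (y axis, TMM-scaled CPM) in every library, by group; points are libraries, bars the group mean and SD. Prodh and Aldh4a1 are the genes whose control fed and control fasted points do not overlap, and the group means of Prodh2 lie between 183 and 203 CPM.

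Prodh, the entry step of proline oxidation (chromosome 16, 18060357 to 18090203, minus strand, GRCm38), showed the largest fall of the 9 in control mice. In CPM after edgeR's TMM scaling the 5 control fed libraries had 277, 233, 304, 269 and 373. The 5 control fasted libraries had 113, 138, 158, 107 and 150. Every fasted library was below every fed library. The fall was 1.13 on the log2 scale (log2 fold change -1.13 ± 0.22 SE, to 45.8% of the fed level; edgeR adjusted p = 0.00121), from 291 ± 52.3 to 133 ± 22.4 CPM (SD, n = 5 and 5). Prodh stayed past the threshold in all 30 alternative analyses, between -1.20 and -1.02.

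In knockout mice Prodh did not pass the threshold. The 6 knockout fed libraries ranged from 130 CPM over a median of 240 to 270. The 6 knockout fasted libraries ranged from 86.3 over a median of 138 to 244. The groups overlapped through 1 library in each, replicate 3 of both: 130 CPM was the lowest fed value, with the other 5 at 217 to 270, and 244 the highest fasted value, with the other 5 at 86.3 to 149. The estimate was -0.61 ± 0.19 (edgeR adjusted p = 0.0676). Leaving out knockout fasted replicate 3 gave -0.82 (edgeR adjusted p = 0.00122), and leaving out knockout fed replicate 3 gave -0.72 (edgeR adjusted p = 0.0105). In knockout mice Prodh was called lower by DESeq2 (adjusted p = 0.0167), by limma voom (adjusted p = 0.0195) and by edgeR with genes of a mean CPM of at least 1 (adjusted p = 0.0496).

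The same libraries stood outside the others of their groups for Aldh4a1, and 4 further genes that changed on fasting, chosen after their values were seen, were read in them. Aldh4a1 was at 177 CPM in knockout fed replicate 3 (others 191 to 221) and at 179 in knockout fasted replicate 3 (others 103 to 136). Oplah, which rose on fasting, was at 125 CPM in the former (others 104 to 149) and at 259 in the latter (others 213 to 296). Slc36a1, which fell on fasting, was at 49.7 CPM in the former (others 38.9 to 53.6) and at 24.2 in the latter (others 21.3 to 29.3). Slc25a13, which rose on fasting, was at 161 CPM in the former (others 155 to 183) and at 239 in the latter (others 217 to 286). Nit2, which fell on fasting, was at 72.6 CPM in knockout fed replicate 3, below the other 5 (85.0 to 109), and at 49.8 in knockout fasted replicate 3 (others 39.9 to 60.1). Knockout fed replicate 3 was thus within the others for 3 of these 4 genes and on the fasted side of them for Nit2, and knockout fasted replicate 3 within them for all 4.

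Prodh2, which acts on hydroxyproline (chromosome 7, 30493622 to 30513402, plus strand), did not pass the test in either genotype. The control fed libraries had 232, 208, 188, 177 and 206 CPM, and the control fasted libraries 213, 170, 222, 174 and 235. The groups overlapped throughout, with means of 202 ± 21.1 and 203 ± 29.2 (SD, n = 5 and 5). The log2 fold change was 0.00 ± 0.13, with a 95% interval from -0.27 to 0.27 (edgeR adjusted p = 0.995). In knockout mice it was -0.06 ± 0.12, with an interval from -0.31 to 0.18 (edgeR adjusted p = 0.915).

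Aldh4a1, which makes glutamate from the product of Prodh (chromosome 4, 139622866 to 139649690, plus strand), fell in both genotypes. The control fed libraries had 233, 185, 189, 221 and 216 CPM, and the control fasted libraries 138, 122, 122, 96.3 and 151. No fasted library reached the lowest fed library. The change was -0.73 ± 0.13, to 60.2% of the fed level (edgeR adjusted p = 0.000155). In knockout mice the fed libraries ran from 177 over a median of 208 to 221 CPM, and the fasted libraries from 103 over 123 to 179. Of the 6 fasted libraries 5 lay below the lowest fed library, and knockout fasted replicate 3 overlapped it. The change was -0.63 ± 0.12, to 64.4% (edgeR adjusted p = 0.00032), and both changes were called in all 30 alternative analyses.

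Control groups that did not overlap were found for 2 of the 9 genes, Prodh and Aldh4a1; 7.91% of all genes did not overlap there in either direction and 4.03% lay wholly lower on fasting. In knockout mice no gene of the 9 had groups apart, against 3.97% and 2.15% of all genes.

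Glud1, glutamate dehydrogenase (chromosome 14, 34310727 to 34345144, plus strand), was the most abundant of the 9 and fell by less. The control fed libraries had 927, 1031, 824, 981 and 1058 CPM, and the control fasted libraries 949, 719, 649, 638 and 748. Control fasted replicate 1 lay among the fed libraries and the other 4 lay below them. The change was -0.38 ± 0.12, to 76.8% of the fed level (edgeR adjusted p = 0.038). This call depended on single libraries. It was lost without control fed replicate 1 (edgeR adjusted p = 0.059), 2 (0.0883), 4 (0.0739) or 5 (0.0986), without control fasted replicate 2 (0.0794), 3 (0.118), 5 (0.116) or 6 (0.0657), and in a fit of the 2 control groups alone (0.0528). The estimate stayed between -0.48 and -0.33 with any library left out.

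In knockout mice Glud1 ran from 853 over a median of 1049 to 1130 CPM in fed libraries and from 671 over 796 to 898 in fasted libraries. Of the 6 fasted libraries 5 lay below all fed libraries. The change was -0.40 ± 0.11, to 75.9% (edgeR adjusted p = 0.0181). Without knockout fasted replicate 6 it was -0.35 and the call was lost (edgeR adjusted p = 0.0586), which left 1 of the 9 genes called lower in knockout mice.

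Gls2, the glutaminase of periportal liver (chromosome 10, 128194457 to 128210004, plus strand), had similar estimates in both genotypes that missed the threshold. The control fed libraries had 413, 369, 421, 450 and 575 CPM, and the control fasted libraries 269, 224, 415, 249 and 381. Control fasted replicates 3 and 6 overlapped the fed libraries and the other 3 lay below. The estimate was -0.53 ± 0.19 (edgeR adjusted p = 0.0872); the call was made without control fasted replicate 3 (-0.67, edgeR adjusted p = 0.0309) and without knockout fasted replicate 2, which enters only the shared spread (-0.53, edgeR adjusted p = 0.0184). In knockout mice the fed libraries ran from 391 over a median of 425 to 549 CPM and the fasted libraries from 164 over 318 to 398. There the estimate was -0.52 ± 0.17 (edgeR adjusted p = 0.0771). The exons of Gls2 share 97 bases with Spryd4 on the other strand, whose reads cannot be told apart without the strand setting. The knockout call was made by DESeq2 (adjusted p = 0.0336), by limma voom (adjusted p = 0.0172) and without knockout fasted replicate 5 (-0.60, edgeR adjusted p = 0.041).

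**Figure D2:**
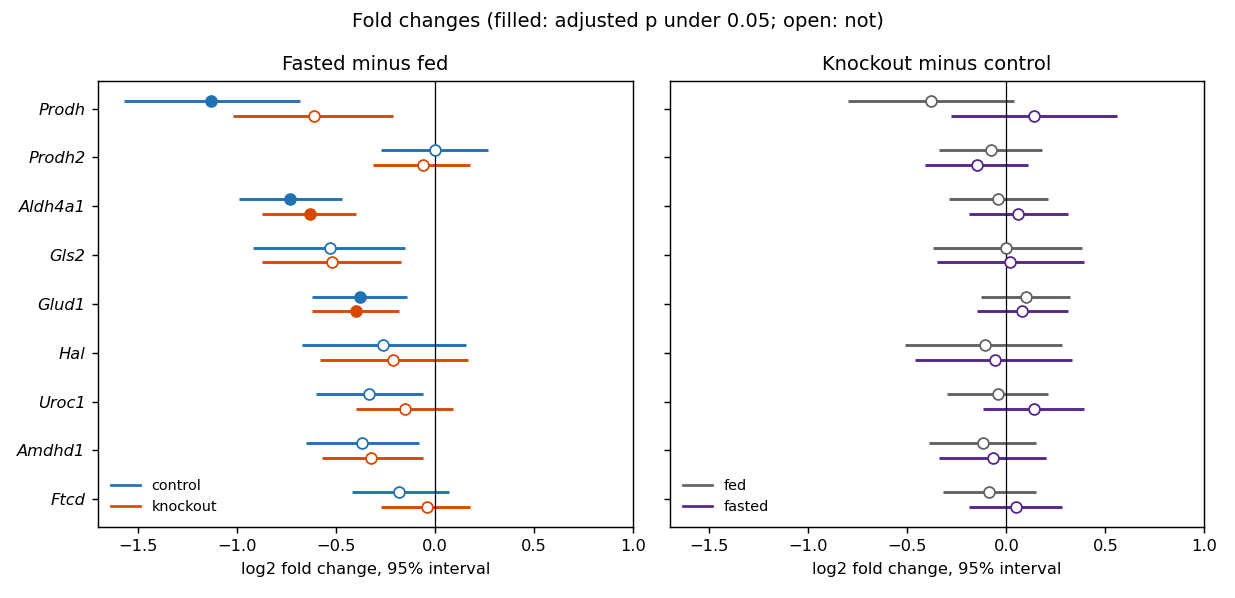
Log2 fold change of each gene (x axis) with its 95% interval, fasted minus fed on the left and knockout minus control on the right; filled points passed an adjusted p of 0.05. On fasting 3 genes in control and 2 in knockout are filled, and on the right every interval crosses 0.

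None of the 4 histidine genes passed the threshold on fasting in either genotype, and all their estimates were negative. Hal, which removes the amino group of histidine (chromosome 10, 93488768 to 93519304, plus strand), had 560, 492, 542, 530 and 682 CPM in control fed libraries. In control fasted libraries it had 308, 337, 721, 455 and 528. The fasted libraries lay on both sides of the fed ones, with a coefficient of variation of 35.4% against 12.8% in fed libraries. The estimate was -0.26 ± 0.20 in control (edgeR adjusted p = 0.569) and -0.21 ± 0.18 in knockout mice (edgeR adjusted p = 0.722), where fed libraries ran from 409 over a median of 525 to 636 CPM and fasted libraries from 307 over 461 to 568.

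Amdhd1, the imidazolonepropionase (chromosome 10, 93523338 to 93540033, minus strand), had 283, 266, 235, 308 and 285 CPM in control fed libraries and 166, 171, 277, 202 and 250 in control fasted libraries. Control fasted replicates 3 and 6 overlapped the fed libraries, as for Gls2. The estimate was -0.37 ± 0.14 (edgeR adjusted p = 0.109), and without control fasted replicate 3 it was -0.48 and called (edgeR adjusted p = 0.0337). In knockout mice fed libraries ran from 219 over a median of 254 to 299 CPM and fasted libraries from 150 over 209 to 251, with an estimate of -0.32 ± 0.13 (edgeR adjusted p = 0.164).

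Uroc1, the urocanase (chromosome 6, 90333289 to 90364551, plus strand), had 481, 422, 441, 431 and 544 CPM in control fed libraries and 372, 381, 387, 277 and 426 in control fasted libraries. All but control fasted replicate 6 lay below the fed libraries, yet the estimate of -0.33 ± 0.13 missed the threshold (edgeR adjusted p = 0.135). In knockout mice fed libraries ran from 403 over a median of 425 to 596 CPM and fasted libraries from 320 over 418 to 500, with an estimate of -0.15 ± 0.12 (edgeR adjusted p = 0.664). Ftcd, which moves the formimino group to folate and releases glutamate (chromosome 10, 76575648 to 76590338, plus strand), had the smallest estimates of the 4. It had 468, 419, 408, 482 and 460 CPM in control fed libraries and 376, 373, 453, 344 and 432 in control fasted libraries, which overlapped. The Ftcd estimate was -0.18 ± 0.12 in control (edgeR adjusted p = 0.483) and -0.04 ± 0.11 in knockout mice (edgeR adjusted p = 0.946), where fed libraries ran from 359 over a median of 412 to 503 CPM and fasted libraries from 327 over 400 to 495.

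Loss of Gpt2 was compared within each feeding state, and then as the difference between the fasting responses of the 2 genotypes. None of the 9 genes passed the test in any of the 3 comparisons by edgeR, and none had an unadjusted p under 0.05; DESeq2 and limma voom also called 0 of 9. The background of adjusted calls was 0.00597% in each, 1 gene of 16757. An unadjusted edgeR p under 0.05 was found for 1509 of the 16757 in fed mice, 672 in fasted mice and 786 for the difference. At these shares 0 of 9 does not set the 9 genes apart. Over the 95% intervals of the 9 log2 fold changes in fed mice, the lowest bound was -0.80 (Prodh) and the highest 0.38 (Gls2). In fasted mice the lowest was -0.46 (Hal) and the highest 0.56 (Prodh). For Aldh4a1 the intervals ran from -0.29 to 0.21 in fed and from -0.19 to 0.31 in fasted mice and did not reach the size of its fasting change. For Hal, from -0.51 to 0.28 in fed mice, they did.

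Prodh had the lowest p of the 9 in fed mice. It was at 291 ± 52.3 CPM in control fed and 224 ± 49.3 in knockout fed libraries (SD, n = 5 and 6), a log2 fold change of -0.38 with an interval from -0.80 to 0.04 (edgeR adjusted p = 0.623). In fasted mice it was 0.14 with an interval from -0.28 to 0.56 (edgeR adjusted p = 1). The difference between its fasting responses was 0.52 ± 0.29 on the log2 scale, with an interval from -0.08 to 1.11 (edgeR adjusted p = 1). Prodh thus passed the threshold on fasting in control and not in knockout mice without a shown difference between the 2 responses. For Aldh4a1 the same difference was 0.10 ± 0.17 and for Glud1 -0.02 ± 0.16, both with an edgeR adjusted p of 1.

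Levels were compared between the genes per length, in scaled CPM per kilobase. Glud1 was the highest of the 9 in all 4 groups, at 236 ± 22.8 in control fed, 181 ± 30.7 in control fasted, 252 ± 24.8 in knockout fed and 191 ± 22.2 in knockout fasted libraries (SD). Its libraries lay above those of the next gene in each group without overlap. In control fed libraries there followed Ftcd at 140 ± 10.1, Uroc1 at 134 ± 14.4, Gls2 at 128 ± 22.4, Amdhd1 at 114 ± 11.1, Hal at 101 ± 13, Prodh at 84.1 ± 15.1 and Prodh2 at 82.3 ± 8.56. The ranges of each of these neighbours overlapped the next. Aldh4a1 came last, at 42.5 ± 4.27, without overlap with Prodh2.

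On fasting the order of the group means in control mice changed at its lower end. Prodh per length went from 84.1 ± 15.1 to 38.5 ± 6.48 in control mice, while Prodh2 was at 82.3 ± 8.56 and 82.5 ± 11.9. Prodh2 was above Prodh in 5 of 5 control fasted libraries, without overlap, and in 6 of 6 knockout fasted libraries, with overlapping ranges. In knockout fed libraries Prodh2 was already above Prodh in 4 of 6. In control fed libraries Prodh was above Prodh2 in 3 of 5, and the ranges overlapped in both fed groups. The level of Aldh4a1 per length is uncertain, because 32.5% of its exonic length is shared with Gm21969 on the same strand, a gene with 97 reads over 23 libraries. Over the unshared length alone Aldh4a1 was at 63.0 ± 6.33 in control fed and 38.0 ± 6.17 in control fasted libraries, below Prodh in the former and about level with it in the latter. All 9 genes together took 0.385% of the reads in control fed, 0.293% in control fasted, 0.383% in knockout fed and 0.299% in knockout fasted libraries. Their summed level ran from 3552 to 4399 CPM in control fed and from 2541 to 3404 in control fasted libraries, with no overlap, and from 3474 to 4192 in knockout fed and from 2564 to 3512 in knockout fasted libraries, which overlapped.

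**Figure D3:**
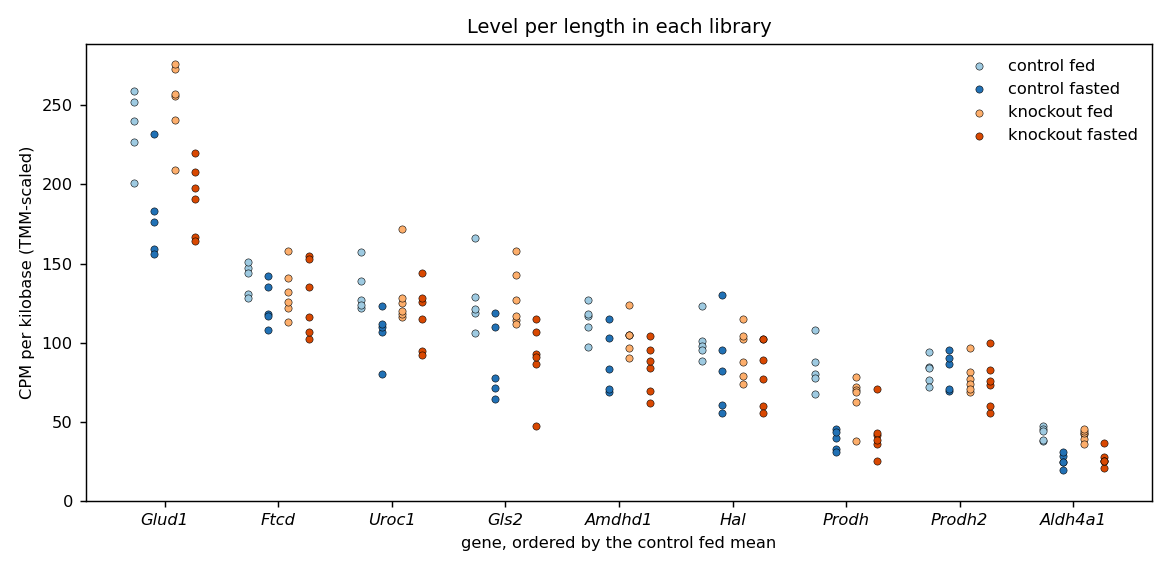
Level per length of each gene (y axis, TMM-scaled CPM per kilobase) in each library, coloured by group and ordered by the control fed mean. Glud1 lies above all others in each group, and Prodh lies below Prodh2 in control fasted libraries.

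Within groups some of the 9 genes varied together, after each group's mean had been subtracted from the log2 levels. These correlations over 22 libraries are descriptions, the highest of 36 pairs, between genes that share each library's depth and scaling. Hal and Amdhd1, 2 consecutive genes on chromosome 10 that lie 4033 bases apart with their 3′ ends facing and no gene between them, had a Pearson r of 0.89 and a Spearman rho of 0.89; without the 2 libraries farthest out on Hal, control fasted replicates 1 and 3, r was 0.84. Uroc1 and Ftcd had an r of 0.78 (rho 0.73; 0.73 without 2 libraries). Gls2 and Hal had an r of 0.75 (rho 0.77; 0.72 without 2 libraries). Hal with Uroc1 had an r of 0.20 and Amdhd1 with Ftcd 0.31.

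**Figure D4:**
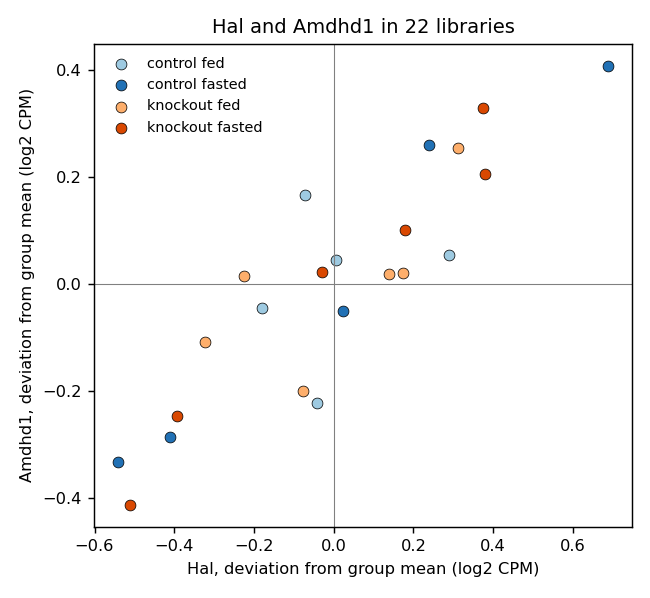
Deviation of Amdhd1 (y axis) against that of Hal (x axis) from their group means, log2 CPM, 1 point per library. Libraries high for Hal are high for Amdhd1 (r 0.89, n = 22).

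Prodh and Aldh4a1 had an r of 0.64 (rho 0.55), which dropped to 0.44 without replicate 3 of both knockout groups. Glud1 ran against Hal, with an r of -0.45, and against Gls2, with -0.33. Some libraries were low or high across the set. Knockout fasted replicate 2 lay below its group mean for 8 of the 9 genes, by 0.34 on the log2 scale on average (mean deviation -0.34), and knockout fasted replicate 3 above it for all 9, by 0.33. Control fasted replicates 3 and 6 were above their group by 0.23 and 0.21.

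The genes most like each of the 9 over all 22 libraries, among 8917 named genes, were described by Pearson r. For Prodh these were Pecr (0.92) and Tst (0.90), and after subtraction of group means Gpt (0.86), the paralog of Gpt2, and Ppp1ca (0.78). For Aldh4a1 they were Nat8f1 (0.97) and Gsta3 (0.95), and for Glud1 Fermt2 (0.90) and Osbpl8 (0.89). For Gls2 they were Aspg (0.88) and Pecr (0.84), and for Prodh2 Tle2 (0.79) and Proc (0.78). Hal was most like Cyp4f15 (0.84) and Aspg (0.79), and Amdhd1 most like Cyp4f15 (0.86) and Ngef (0.86). Uroc1 was most like Aldh1b1 (0.86) and C4b (0.83), and Ftcd most like Romo1 (0.81) and Masp2 (0.77). Groups and libraries both enter these values, which share the same depth and scaling.

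Of the other genes of these pathways some were called higher and some lower on fasting. Over all genes tested 3.99% were called higher and 4.13% lower in control mice, and 2.88% and 3.26% in knockout mice. These shares are the background for this list and the lists below. Of 11 further genes of proline and ornithine metabolism 1 fell and none rose in control mice, with a median log2 fold change of -0.29. At 8.12% of all genes called, 1 of 11 does not set this list apart. In knockout mice 1 rose and 2 fell, with a median of -0.08. Otc, which joins ornithine to carbamoyl phosphate in the urea cycle, fell in both, with log2 fold changes of -0.71 ± 0.12 in control (edgeR adjusted p = 0.000141) and -0.51 ± 0.11 in knockout mice (edgeR adjusted p = 0.00261). Oat, which makes pyrroline-5-carboxylate from ornithine, had 0.38 ± 0.28 and 0.12 ± 0.26 and was not called.

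Of 15 further genes of glutamate and glutamine metabolism 2 rose and 1 fell in control mice, with a median of -0.12, and 2 rose and 2 fell in knockout mice, with a median of 0.06. Oplah, which opens 5-oxoproline to glutamate, rose from 136 ± 16.5 to 271 ± 22.3 CPM in control mice (log2 fold change 0.99 ± 0.12, edgeR adjusted p = 4.27e-07) and by 1.0 ± 0.11 in knockout mice (edgeR adjusted p = 8.47e-08). Nit2, an amidase of the glutamine transaminase route, fell from 89.1 ± 10.8 to 48.1 ± 6.03 CPM in control mice (-0.89 ± 0.13, edgeR adjusted p = 1e-05) and changed by -0.88 ± 0.12 in knockout mice (edgeR adjusted p = 2.32e-06). Gpt2 itself rose on fasting in control mice by 0.91 ± 0.20 (edgeR adjusted p = 0.00324), and the residual reads of knockout mice by 0.88 ± 0.18 (edgeR adjusted p = 0.00221). Glutamine synthetase Glul was not called, with -0.10 ± 0.17 and 0.06 ± 0.15.

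Of 13 further genes of histidine and folate metabolism 1 rose and 3 fell in control mice, with a median of -0.14, and 3 fell in knockout mice, with a median of -0.09. Aldh1l1, which oxidises formyl-tetrahydrofolate and so lies downstream of the folate product of Ftcd, fell from 1687 ± 248 to 715 ± 167 CPM in control mice (-1.24 ± 0.19, edgeR adjusted p = 7.66e-05) and changed by -0.79 ± 0.17 in knockout mice (edgeR adjusted p = 0.00413). Cndp2, a dipeptidase, fell in control mice (-0.62 ± 0.14, edgeR adjusted p = 0.00324) and had -0.21 ± 0.13 in knockout mice (edgeR adjusted p = 0.504). With 23 libraries, the kidney-like control fasted replicate 4 added, its control estimate was 0.74 and not called. Hnmt, which methylates histamine, fell in both genotypes, with -0.92 ± 0.23 and -0.85 ± 0.20 (edgeR adjusted p = 0.00663 and 0.00657). Hdc, which makes histamine from histidine, rose in control mice from 8.92 ± 5.83 to 35.3 ± 12.5 CPM (1.99 ± 0.49, edgeR adjusted p = 0.0133) and had 1.49 ± 0.44 in knockout mice (edgeR adjusted p = 0.0504).

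**Figure D5:**
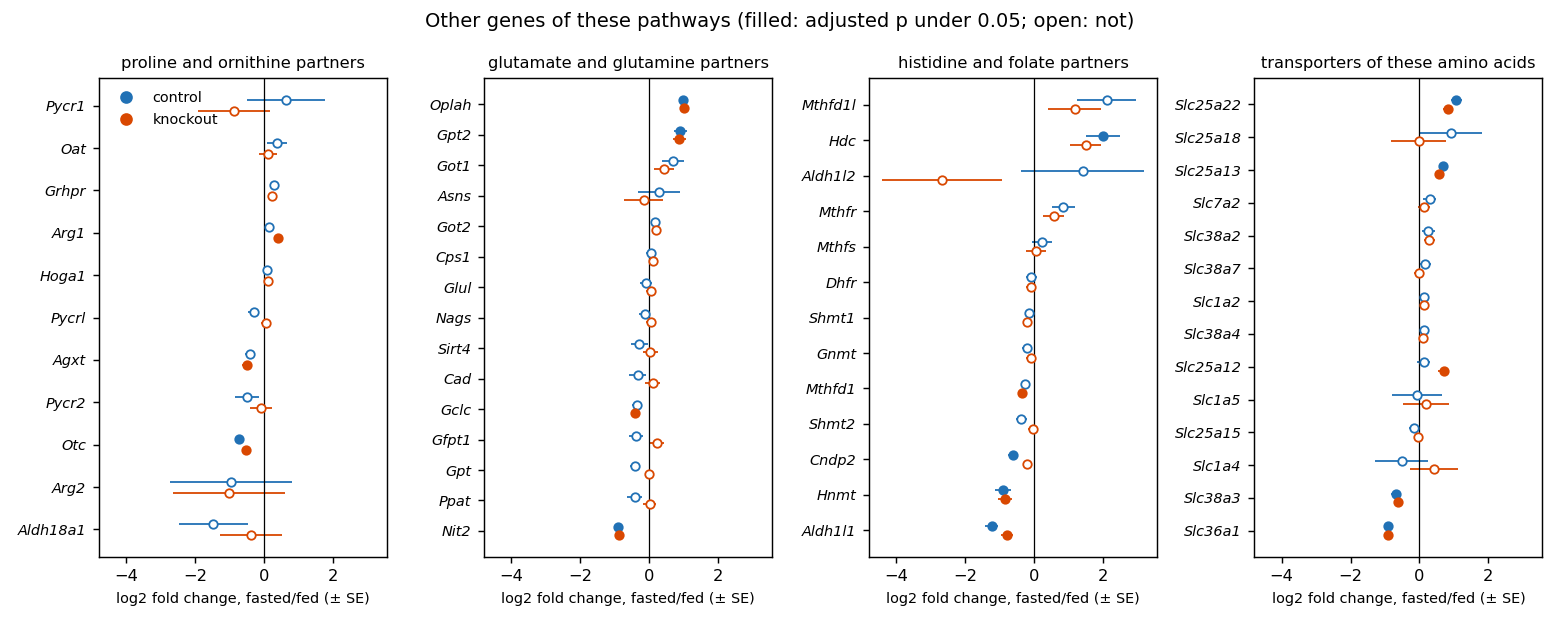
Log2 fold change on fasting (x axis, with SE) of other genes of these pathways in control and knockout mice; filled points passed an adjusted p of 0.05. Oplah and Slc25a22 lie to the right of 0 and Nit2, Aldh1l1 and Slc36a1 to the left in both genotypes.

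Of 16 transporters of these amino acids 14 were tested; 2 rose and 2 fell in control mice, and 3 rose and 2 fell in knockout mice, with a median of 0.14 in each. The mitochondrial glutamate carrier Slc25a22 rose by 1.07 ± 0.16 in control (edgeR adjusted p = 2.56e-05) and 0.82 ± 0.15 in knockout mice (edgeR adjusted p = 0.000243). The aspartate-glutamate carrier Slc25a13 rose by 0.67 ± 0.10 (edgeR adjusted p = 1.25e-05) and 0.56 ± 0.09 (edgeR adjusted p = 4.96e-05). Slc38a3, which carries glutamine and histidine across the hepatocyte membrane, fell, with -0.68 ± 0.15 (edgeR adjusted p = 0.00282) and -0.61 ± 0.14 (edgeR adjusted p = 0.00401). Slc36a1, which carries proline with protons, fell, with -0.91 ± 0.13 (edgeR adjusted p = 6.11e-06) and -0.91 ± 0.12 (edgeR adjusted p = 1.31e-06). Of 12 transcription factors and cofactors listed as regulators 1 rose in control mice, Ppara (0.76 ± 0.15, edgeR adjusted p = 0.000601), and 2 in knockout mice, Ppara (0.67 ± 0.14, edgeR adjusted p = 0.00119) and Hnf4a (0.48 ± 0.11, edgeR adjusted p = 0.00373). Gpt2 was the only gene of these 5 lists called between genotypes by edgeR, DESeq2 or limma voom, and the difference of fasting responses had no call in them by any of the 3 tools. Unadjusted edgeR p-values under 0.05 for that difference were found for 2 of the 15 glutamate and glutamine genes, 1 of the 13 histidine and folate genes, 1 of the 14 transporters and 0 in the other 2 lists. Over all 16757 genes there were 786.

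Markers of liver zones and of other cells were read beside these changes, and their part in them was not tested. Over all 16757 genes edgeR called 1360 (8.12%) on fasting in control and 1029 (6.14%) in knockout mice. These are the background for the markers called here and below. An unadjusted edgeR p under 0.05, a looser measure, was found for 3276 on fasting in control and 2678 in knockout mice. Of 10 periportal markers 2 rose and 2 fell in control mice, and 3 rose and 1 fell in knockout mice. Their summed level ran from 12344 to 16256 CPM in control fed and from 14564 to 18755 in control fasted libraries. Of 10 pericentral markers 1 rose and 3 fell in control mice and 2 fell in knockout mice, with sums of 6199 to 9880 and 8581 to 9846 CPM in control fed and fasted libraries. Of 8 hepatocyte markers 1 rose and 2 fell in control mice and none was called in knockout mice by edgeR (2 at an unadjusted p under 0.05; 0 by DESeq2 and 1 by limma voom), with sums of 80847 to 118596 and 78380 to 150096 CPM in control fed and fasted libraries.

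No Kupffer and macrophage marker (0 of 8) and no leukocyte marker (0 of 5) was called on fasting in either genotype by edgeR, DESeq2 or limma voom, and at an unadjusted p under 0.05 there were 2 Kupffer markers in control mice and 0 otherwise. Between genotypes in fasted mice all 8 Kupffer markers had an unadjusted edgeR p under 0.05, beside 672 of all 16757 genes. Of the 8 markers 0 were called by any of these tools, with sums of 123 to 150 CPM in control fasted and 140 to 293 in knockout fasted libraries. Of 7 sinusoidal endothelial markers Lyve1 was called higher on fasting in each genotype by edgeR and DESeq2, but by limma voom in knockout mice only. That call was lost in control mice without control fasted replicate 3, and in knockout mice when any 1 of most of the libraries was left out. The median log2 fold change of all 7 on fasting was 0.21 in control and -0.08 in knockout mice. In control mice Dnase1l3 alone had a negative estimate, -0.45 ± 0.15, and was not called (edgeR adjusted p = 0.0595). Between genotypes all 7 had positive estimates (knockout over control), with a median log2 fold change of 0.53 in fed and 0.40 in fasted mice. In each feeding state 4 of the 7 had an unadjusted edgeR p under 0.05, beside 1509 of all 16757 genes in fed and 672 in fasted mice. Of the 7 markers 0 were called by edgeR or limma voom, and DESeq2 called 1 in fed and 0 in fasted mice. The smallest edgeR adjusted p of the 7 was that of Kdr in fed mice (0.87 ± 0.16, edgeR adjusted p = 0.0511). Their summed level ran from 125 to 190 CPM in control fed, 149 to 202 in control fasted, 177 to 258 in knockout fed and 165 to 256 in knockout fasted libraries.

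On fasting, of 8 stellate markers 2 were called lower in control and 1 in knockout mice. Of 6 cholangiocyte markers 1 was called lower in control mice and 0 in knockout mice, there also 0 by DESeq2 and limma voom. In knockout mice 2 of the 6 had an unadjusted edgeR p under 0.05, beside 2678 of all 16757 genes. The stellate marker Col3a1 was lower in both genotypes, at -1.33 ± 0.22 and -1.45 ± 0.20 (edgeR adjusted p = 8.07e-05 and 5.39e-06). Summed stellate markers ran from 123 to 160 CPM in control fed and from 76.5 to 140 in control fasted libraries. Kidney proximal tubule markers summed to at most 24.6 CPM in the libraries used. Of 6 exocrine pancreas markers only Cela1 was tested, and it was lower on fasting (-2.28 ± 0.24 in control, edgeR adjusted p = 4.43e-08). The other 5 were at 0 in all control fasted and also in all knockout fed libraries. Of these, 2 were at 0 in all control fed and 4 in all knockout fasted libraries.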

How the data were processed

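Polyadenylated RNA of mouse liver was selected with oligo-dT and sequenced, per the labels. Per the submitters' processing notes the authors used bcl2fastq, STAR 2.5.1a and, from Subread, featureCounts 1.4.6-p5, with GRCm38; for the annotation release and the strand setting the entry is: not given in the sources used here. The deposited files hold read counts per gene, which entered every test. The deposited CPM and RPKM values were checked to be each count over the library's total and that value per kilobase, and were not used further. Symbols came from GENCODE M21, which held 40340 of 41388 genes. Groups came from the sample titles.

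Counts of 22 libraries (control fed replicate 6 and control fasted replicate 4 left out) were fitted together in edgeR 4.0.16 under R 4.3.3, with TMM scaling, filterByExpr (minimum count 10, minimum total 15) and the robust quasi-likelihood test. P-values were adjusted by the Benjamini-Hochberg method over 16757 genes, with a threshold of 0.05. The script was tested on simulated counts, with changed genes drawn from all those tested, at any level. Over the comparisons it recovered 4.5 to 16.4% of 1.5-fold changes, 23.9 to 44.8% of 2-fold changes and 53 to 72.7% of 4-fold changes. DESeq2 1.42.0, limma 3.58.1 voom with sample weights, other scalings and filters, 23 libraries (control fasted replicate 4 added), the compared groups alone and each library left out were the alternatives. Levels are TMM-scaled CPM, and levels per length divide these by the gene length in kilobases. Over 55 pairs of libraries within groups, counts differed beyond sampling noise (lowest chi-square per degree of freedom 37.4), so none of these pairs was 1 library sequenced again. Pairs from different groups were not compared, and separate libraries of 1 animal would not be found this way. All 9 genes are named in each comparison. From each of 15 other lists the counts are given, and the genes named are from the 4 of smallest p in a comparison, not all of which are described; Oat and Glul, and 4 genes read as a check of libraries, were chosen after their values were seen, and 1 further gene is not reported here. The genes most alike are the 2 with the highest Pearson r among 8917 genes whose mean log2 CPM was 2 or more. The 9 genes, the lists and the motifs were chosen with earlier results of these data known.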

Additional observations from a re-analysis of the deposited data

Results flagged for a closer look

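Uroc1 in knockout fed replicate 3, at 596 CPM, stood apart from the other 5 libraries of its group, at 403 to 443: the gap to the nearest was 0.793 of the group's range, above Dixon's 95% critical value of 0.625. It was the only such value among 36 groups of the 9 genes, where chance flags about 1 in 20. The same library had the lowest Prodh of its group.

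The kidney-like library, control fasted replicate 4, which entered no comparison, had Prodh at 193 CPM, above the 110 to 162 of the other control fasted libraries when all 23 were scaled together. Aldh4a1 was at 114 there, within the 98.8 to 154 of the others, and Glud1 at 460, below their 655 to 977. The remaining genes were lower still against the liver libraries, with Gls2 at 1.10, Hal at 1.41 and Amdhd1 at 2.98 CPM, Ftcd at 17.3, Prodh2 at 43.8 and Uroc1 at 54.4. The kidney gene Kap was at 4346 CPM in it and at most 9.21 in the other control fasted libraries.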

How the results depend on the processing

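Each result was recomputed under 30 alternatives (29 for the difference of fasting responses), all chosen at the start. The number of the 9 genes called on fasting in control mice stayed within 1.5 times of 3 in all, but the genes called differed. Prodh and Aldh4a1 were called in all 30 and Glud1 in 20. Gls2 and Amdhd1, not called above, were called in 2 and 1. In knockout mice the number called was 2, but 4 with DESeq2, 4 with limma voom and 1 with 23 libraries. It was between 1 and 3 with any 1 library left out. Here and below, 23 libraries means that the kidney-like control fasted replicate 4 was added to the control fasted group. Over all genes, calls in control mice went from 1360 to 805 with 23 libraries, and in knockout mice from 1029 to 379; there Glud1 was no longer called (edgeR adjusted p = 0.113 in control and 0.296 in knockout mice). Between genotypes in fed mice edgeR called 1 gene of all, against 83 with DESeq2, 14 without the filter, 5 with library totals, 0 with 23 libraries and up to 13 with a library left out (control fed replicate 4). In the difference of fasting responses it called 1, against 10 with DESeq2 and 0 with 23 libraries, and in fasted mice 1, against 2 with DESeq2 and 0 with 23 libraries.

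Changes of direction, whose causes were not tested, were of uncalled values near 0 but for Cndp2 and Spp1. With 23 libraries Cndp2 on fasting in control mice went from a called -0.62 to 0.74, Spp1 from a called -0.73 to 1.14 and Arg1 to -0.10, none of them called. With 23 libraries Prodh2 had -0.20 on fasting in control mice, 0.05 between genotypes in fasted mice and 0.13 in the difference of fasting responses, Hal 0.20 and Amdhd1 0.18 between genotypes in fasted mice, and Glud1 0.08 in the difference. With library totals Prodh2 had -0.0087 on fasting in control mice, Aldh4a1 0.0068 between genotypes in fed mice and Gls2 -0.04 in the difference. With limma voom Prodh2 had -0.0028 on fasting in control mice, Gls2 -0.04 between genotypes in fed and -0.06 in fasted mice, Hal 0.0095 and Ftcd -0.04 in fasted mice, and Gls2 -0.02 in the difference. Gls2 between genotypes in fed mice had -0.0017 with RLE factors, -0.0041 with genes of a mean CPM of at least 1 and -0.0017 with DESeq2.

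Leaving out single libraries turned these estimates, none of them called. On fasting Prodh2 ran from -0.05 to 0.06 in control and from -0.16 to 0.01 in knockout mice, and Ftcd from -0.10 to 0.02 in knockout mice. Between genotypes in fed mice Aldh4a1 ran from -0.08 to 0.0041, Gls2 from -0.06 to 0.11 and Uroc1 from -0.14 to 0.02. In fasted mice Prodh ran from -0.07 to 0.25, Aldh4a1 from -0.05 to 0.13, Gls2 from -0.08 to 0.15, Hal from -0.18 to 0.14, Amdhd1 from -0.15 to 0.04 and Ftcd from -0.01 to 0.10. In the difference Prodh2 ran from -0.17 to 0.0046, Aldh4a1 from -0.01 to 0.17, Gls2 from -0.10 to 0.15, Glud1 from -0.07 to 0.09, Hal from -0.07 to 0.26 and Amdhd1 from -0.03 to 0.16.

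No paired analysis was possible because the labels give no shared replicate numbers; the numbers in the titles differ in every library.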
